A study of Mus musculus with 12 samples.

Results

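Chemokines of the CXC and CX3C classes are small secreted or membrane-bound proteins that steer leukocytes, and the genes described here are the 9 ligands of these classes chosen by name: Cxcl1, Cxcl2, Cxcl9, Cxcl10, Cxcl12, Cxcl13, Cxcl14, Cxcl16 and Cx3cl1. All 9 were listed among the 35697 genes counted in sham and TBI mice and among the 55637 genes counted in vehicle- and zileuton-treated mice. Brain RNA was sequenced as read pairs from 12 adult male wild-type C57BL/6J mice in 4 groups of 3. In a batch of 2018, mice with traumatic brain injury (TBI) by controlled cortical impact, a blow to the exposed cortex, were compared at 7 days with sham mice that had the surgery without the blow. The sham labels give no day, and the study's text gives 7 days for both groups. In a batch of 2022, all mice had TBI, and 1 group received the 5-lipoxygenase inhibitor zileuton by daily intraperitoneal injection at 10 mg/kg in corn oil. Its controls carry only the label TBI at 7 days, and they are called vehicle here after the study's text. The zileuton libraries are named for day 7, but their source labels give 7, 8 and 9 days, and the data columns cannot be tied to single labels, so the 2022 replicates are called A, B and C. The study describes the sequenced tissue as pericontusional.

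CXC ligands with a glutamate-leucine-arginine motif, such as CXCL1 and CXCL2, recruit neutrophils through CXCR2. CXCL9 and CXCL10 are interferon-inducible and draw activated T and NK cells through CXCR3, CXCL13 draws B cells through CXCR5, and CXCL12 acts through CXCR4. CXCL16 and CX3CL1 are made as membrane proteins whose chemokine domains are released by proteases, and in brain CX3CL1 is chiefly neuronal while its receptor CX3CR1 marks microglia.

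The genes lie in a few places of the mouse genome (GRCm38, GENCODE release M21, all protein-coding). On chromosome 5, Cxcl1 (90891241 to 90893115, plus strand) and Cxcl2 (90903871 to 90905938, plus strand) are 10.8 kb apart. Also on chromosome 5, Cxcl9 (92321347 to 92328079, minus strand) and Cxcl10 (92346638 to 92348889, minus strand) are 18.6 kb apart, and Cxcl13 lies further along (95956951 to 95961068, plus strand). Cxcl12 is on chromosome 6 (117168535 to 117181367), Cxcl14 on chromosome 13 (56288643 to 56296551), Cxcl16 on chromosome 11 (70453983 to 70459984) and Cx3cl1 on chromosome 8 (94772009 to 94782427). The whole of Cxcl10 lies within Art3, on the opposite strand, and their exons share 133 bases. The exons of Cxcl16 share 552 bases with Zmynd15, also on the opposite strand. Whether counting used the strand is not given in the sources used here, so reads in these stretches may be assigned to either gene.

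The sequences before the starts of Cxcl1, Cxcl2 and Cxcl10 are shown because they hold the inflammatory motifs searched for beside genes that rose after TBI. They are the 250 bases before the RefSeq start (GRCm38.p6), read 5′ to 3′ on the gene's strand, and capitals mark matches to the motif of NF-kB, or in Cxcl10 also of the interferon-stimulated response element (ISRE, GAAANNGAAA). Cxcl1 is shown for chr5:90890995-90891244 (plus strand), Cxcl2 for chr5:90903649-90903898 (plus strand) and Cxcl10 for chr5:92348890-92349139 (minus strand).
Cxcl1: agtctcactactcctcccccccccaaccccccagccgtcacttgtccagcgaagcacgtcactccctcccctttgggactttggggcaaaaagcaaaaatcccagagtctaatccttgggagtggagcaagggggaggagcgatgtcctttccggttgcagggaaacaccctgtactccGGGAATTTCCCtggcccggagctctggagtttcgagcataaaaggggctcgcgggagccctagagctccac
Cxcl2: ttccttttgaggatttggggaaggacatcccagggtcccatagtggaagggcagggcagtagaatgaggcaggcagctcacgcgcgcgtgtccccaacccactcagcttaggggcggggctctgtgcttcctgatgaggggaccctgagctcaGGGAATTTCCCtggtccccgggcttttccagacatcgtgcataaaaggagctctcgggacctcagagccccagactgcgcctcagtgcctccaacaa
Cxcl10: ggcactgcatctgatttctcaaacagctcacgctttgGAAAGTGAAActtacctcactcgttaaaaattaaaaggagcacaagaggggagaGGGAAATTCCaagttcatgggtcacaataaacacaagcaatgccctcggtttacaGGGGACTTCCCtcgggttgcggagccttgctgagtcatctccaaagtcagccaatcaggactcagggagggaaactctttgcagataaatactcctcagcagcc

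Cxcl1 and Cxcl2 held the same run, GGGAATTTCCC, which is a match on each strand, overlapping by all but 1 base. It began 71 bases before the start of Cxcl1 and 97 bases before that of Cxcl2. Cxcl10 held 3 NF-kB matches, of which 2 overlap, and its ISRE match, GAAAGTGAAA, began 213 bases before the start. Among the 8 ligands with an entry in the promoter table, these 3 held an NF-kB match. Of 32851 promoters of the same length, 7.25% held an NF-kB match on either strand, 2.98% an ISRE match, 7.02% a match to the interferon-gamma-activated site (GAS, TTCNNNGAA) and 7.59% the TATA letters TATAAA on the gene's strand. Cxcl14 held an ISRE and a GAS match, Cxcl9, Cxcl13 and Cx3cl1 held only TATA letters, and Cxcl12 held none of the 4 motifs. A match describes letters in this window and was not tested as a binding site.

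Library totals ran from 42929862 to 48684674 counts in 2018 and from 27845562 to 35453257 in 2022. Even numbers made up 62.3% to 64.4% of all values between 1 and 20 in the 2018 libraries, which is why ratios of low counts were taken over pairs of counts there. The 10 neuronal markers, with Camk2a and Snap25 the highest of them, summed to between 7520 and 12800 CPM (counts scaled to 1e+06 per library after TMM) in every library. The choroid plexus gene Ttr ran from 556 to 61170 counts in 2018 and from 102 to 41216 in 2022, so libraries differed widely in this gene. In 2018 it was at 355 ± 564 CPM in sham and 1160 ± 89.2 CPM in TBI mice (SD, n = 3 each), without overlap (edgeR adjusted p = 0.331). Choroid plexus markers summed to 22.2 to 1080 CPM in sham and 1170 to 1340 CPM in TBI libraries. In 2022 these sums overlapped, at 13.6 to 1070 CPM in vehicle and 16.1 to 1480 CPM in zileuton libraries. Xist, the RNA of the inactive X chromosome of females, had 856 to 1155 counts in each 2018 library beside 2518 to 3008 counts of the Y-linked Ddx3y, and 1.02 to 6.01 estimated counts in 2022, although all mice are labelled male. The part of these differences in the results was not tested. In bulk tissue, fewer cells of a type and less RNA per cell cannot be told apart.

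The first comparison asked what had changed in brain tissue 7 days after TBI. Of the 9 ligands, 7 were higher after TBI, Cx3cl1 was lower, and Cxcl14 did not pass the test (edgeR's quasi-likelihood test with Benjamini-Hochberg adjustment over 19536 genes, adjusted p under 0.05). The background was 16.8% of genes called higher and 11.2% called lower, and the median log2 fold change of all genes was 0.02. Sham and TBI libraries did not overlap for 8 ligands, against 44.4% of all genes tested. Only Cxcl12, Cxcl14, Cxcl16 and Cx3cl1 had at least 10 counts in every library, and 3 of these were called. The other 5 entered the test through their TBI libraries alone, so their calls are not counted as support for a shared direction. Without sham replicate 2 the number of ligands called was 4 (Cxcl2, Cxcl9, Cxcl10 and Cxcl16). The TBI mice come from 1 batch and 3 animals, and a two-sided exact permutation test of 3 against 3 cannot go below p = 0.1.

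**Figure D1:**
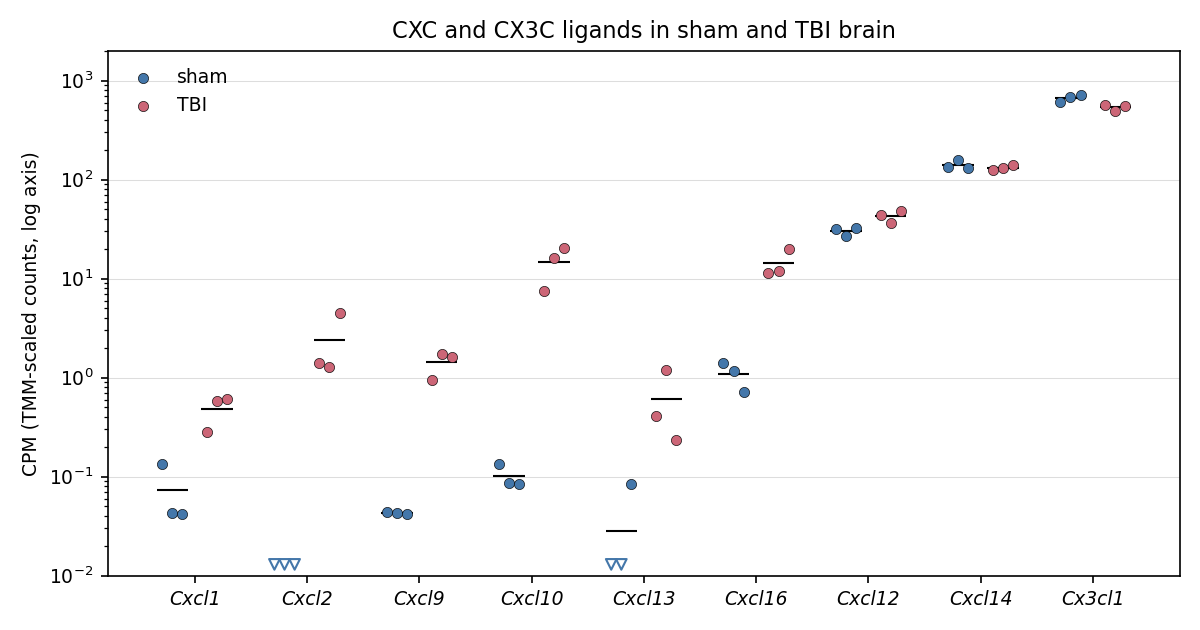
CPM of each ligand on a log axis in 3 sham libraries (blue) and 3 TBI libraries (red), with group means as bars and counts of 0 as open triangles at the foot. TBI libraries lie above all sham libraries for 7 ligands, below them for Cx3cl1, and among them for Cxcl14.

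The neutrophil-recruiting ligands were nearly silent in sham brain. Cxcl2 had 0 counts in every sham library and 70, 62 and 192 counts in TBI replicates 1, 2 and 3. All TBI libraries were thus above all sham libraries, with replicate 3 well above the other two. Its mean of 2.38 ± 1.80 CPM (SD, n = 3) was at least 36.8-fold higher than the level of 3 counts per sham library, or at least 18.4-fold with 6 counts, the number that 3 read pairs give (edgeR adjusted p = 0.00136). Without TBI replicate 3 these bounds were 20.8-fold and 10.4-fold. With limma on log2(FPKM + 1) and no filter, Cxcl2 missed the threshold (adjusted p = 0.0531).

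Cxcl1, the close relative of Cxcl2, had 6, 2 and 2 counts in sham libraries and 14, 28 and 26 in TBI libraries. The groups did not overlap, although every library was low. From 0.0728 ± 0.0522 CPM in sham, its level rose to 0.487 ± 0.176 CPM (SD, n = 3 each), and the log2 fold change was 2.71 (standard error 0.625, edgeR adjusted p = 0.0123). Taken as read pairs, the ratio was 6.70 with an exact 95% counting interval of 2.60 to 21.9. The log2 fold change was 3.42 without sham replicate 1, the highest sham library, and the call was lost without sham replicate 2 (adjusted p = 0.0529) or sham replicate 3 (0.0582). Counting intervals and limits here cover counting error only.

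Among ligands detected in both groups, the interferon-inducible Cxcl10 showed the widest gap. It had 6, 4 and 4 counts in sham libraries and 371, 793 and 885 counts in TBI libraries. Every TBI library exceeded every sham library by a wide margin, and TBI replicate 1 was the lowest of its group. Its level rose from 0.101 ± 0.0276 to 14.8 ± 6.62 CPM (SD, n = 3 each), with a log2 fold change of 7.16 (standard error 0.485, edgeR adjusted p = 2.15e-05). The ratio of read pairs was 144 (exact 95% counting interval 69.7 to 359). Art3, which contains Cxcl10 on the other strand, had 186 to 293 counts in sham and 296 to 340 in TBI libraries, so its sham counts far exceeded those of Cxcl10 (log2 fold change 0.36, standard error 0.187, edgeR adjusted p = 0.19).

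Cxcl9, the neighbour of Cxcl10 and a ligand of the same receptor, had 2 counts in each sham library and 47, 84 and 69 counts in TBI libraries. Here too the groups stood apart and TBI replicate 1 was the lowest of its group. The level went from 0.0432 ± 0.00115 to 1.43 ± 0.413 CPM (SD, n = 3 each), and the log2 fold change was 4.96 (standard error 0.476, edgeR adjusted p = 0.000126). The pair ratio was 32.8, with an exact 95% counting interval of 10.9 to 162. Cxcl9, Cxcl10 and Cxcl16 kept their calls in every alternative that tested them.

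Cxcl13, the B cell chemoattractant, was found in 1 sham library only, with 0, 0 and 4 counts in sham and 20, 58 and 10 in TBI mice. TBI replicate 2 held most of the TBI counts, yet all TBI libraries were above the sham libraries. The mean rose from 0.0280 ± 0.0486 to 0.609 ± 0.510 CPM (SD, n = 3 each), with a log2 fold change of 4.29 (standard error 1.06, edgeR adjusted p = 0.0166) and a pair ratio of 21.7 (exact 95% counting interval 5.65 to 184). The call was lost without sham replicate 1 (adjusted p = 0.0624), sham replicate 2 (0.0593) or TBI replicate 2 (0.0575, log2 fold change 3.37), and with limma on log2(FPKM + 1) without a filter (0.151). Without sham replicate 3 the sham group was at 0, and the TBI level was at least 9.28-fold higher with 3 counts or 4.64-fold with 6. B and plasma cell markers summed to 27.6 to 47.4 CPM in sham and 38.4 to 48 CPM in TBI libraries. Ighm alone held most of both sums (means of 39 and 41.4 CPM). The part of these markers in the Cxcl13 result was not tested.

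Cxcl16, a transmembrane ligand that also serves as a scavenger receptor, was detected in all libraries. Sham libraries held 63, 54 and 34 counts and TBI libraries 560, 580 and 848. The gap between the groups was wide, and TBI replicate 3 was the highest. Its level rose from 1.09 ± 0.347 to 14.3 ± 4.65 CPM (SD, n = 3 each), 13.1-fold (log2 fold change 3.71, standard error 0.308, edgeR adjusted p = 5.92e-05). Zmynd15, which shares exon bases with it on the opposite strand, rose from 7 to 30 counts in sham to 58 to 80 counts in TBI libraries (log2 fold change 2.06, standard error 0.504, edgeR adjusted p = 0.0157). These counts were far fewer than those of Cxcl16 in TBI libraries. Over the sham libraries the gap was smaller, with 49 counts of Zmynd15 beside 151 of Cxcl16. The part of the shared bases in the Cxcl16 result was not tested.

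Cxcl12, which is made by endothelial and meningeal cells and holds CXCR4-bearing cells in place, was abundant in sham brain. It had 1444, 1240 and 1541 counts in sham and 2159, 1792 and 2062 counts in TBI mice. The groups did not overlap, but their distance was small beside that of the inflammatory ligands. The level rose from 30.4 ± 3.14 to 42.8 ± 5.61 CPM (SD, n = 3 each), 1.41-fold (log2 fold change 0.49, standard error 0.119, edgeR adjusted p = 0.0148). Without sham replicate 2, the lowest library, the adjusted p was 0.0586. Endothelial markers summed to 77.6 to 106 CPM in sham and 103 to 172 CPM in TBI libraries, and fibroblast and meningeal markers to 209 to 212 and 275 to 837 CPM. Of 8 markers on each list, 6 endothelial and 5 fibroblast and meningeal markers were called higher, against 16.8% of all genes. The collagens Col1a1, Col1a2 and Col3a1 had the highest TBI means of the second list (107, 129 and 140 CPM). Its markers Pdgfra, Pdgfrb and Slc6a13 were not called (edgeR adjusted p = 0.394, 0.138 and 0.804). The part of these markers in the Cxcl12 result was not tested.

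Cx3cl1, the neuronal ligand of microglial CX3CR1, was the only ligand called lower. It had 27587, 31443 and 33726 counts in sham and 27604, 23721 and 24020 in TBI mice. After scaling, all TBI libraries lay below all sham libraries, the closest pair being sham replicate 1 and TBI replicate 1. The level went from 667 ± 49.9 to 535 ± 41.8 CPM (SD, n = 3 each), 0.802 times the sham level (log2 fold change -0.32, standard error 0.0909, edgeR adjusted p = 0.03). The call was lost without sham replicate 2 (adjusted p = 0.068), sham replicate 3 (0.0909) or TBI replicate 2 (0.0681), and with limma on log2(FPKM + 1) (0.0502, or 0.113 without a filter). All 10 neuronal markers were lower in direction and 5 were called lower, against 11.2% of all genes. They had a median log2 fold change of -0.38 and summed to 12500 to 12800 CPM in sham and 7800 to 10600 CPM in TBI libraries. Their part in the fall of Cx3cl1 was not tested.

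Cxcl14, a ligand expressed constitutively in brain, had 6035, 7218 and 6235 counts in sham and 6167, 6434 and 6027 in TBI mice. The groups overlapped. Its level was 140 ± 13.6 CPM in sham and 132 ± 7.29 CPM after TBI (SD, n = 3 each), and the 95% interval of the log2 fold change was -0.28 to 0.11 (edgeR adjusted p = 0.518).

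Levels per length put these changes side by side. In sham brain the mean FPKM was 167 for Cx3cl1, 75.4 for Cxcl14, 3.65 for Cxcl12, 0.355 for Cxcl16, 0.0441 for Cxcl10, 0.038 for Cxcl1, 0.024 for Cxcl13, 0.0141 for Cxcl9 and 0 for Cxcl2. The 4 ligands at the top of this order were separate in all sham libraries, and those after Cxcl16 rested on a few read pairs, so their order is not resolved. After TBI the mean FPKM was 138 for Cx3cl1, 73.7 for Cxcl14, 6.68 for Cxcl10, 5.32 for Cxcl12, 4.81 for Cxcl16, 1.17 for Cxcl2, 0.545 for Cxcl13, 0.482 for Cxcl9 and 0.265 for Cxcl1. Cxcl10, Cxcl12 and Cxcl16 overlapped between TBI libraries, as did Cxcl2 with Cxcl13, and Cxcl13, Cxcl9 and Cxcl1 with one another. Cx3cl1 and Cxcl14 together made up 98.1% to 98.6% of the summed FPKM of the 9 ligands in sham libraries and 89.8% to 93.8% in TBI libraries. The share of the other 7 went from between 1.43% and 1.94% to between 6.21% and 10.2%, and that of Cxcl10 from between 0.0145% and 0.0253% to between 1.49% and 3.76%.

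Of the 7 remaining CXC ligands, 3 passed the expression filter and were called higher after TBI. Only Pf4 had at least 10 counts in every library, and the others passed chiefly through their TBI libraries, so this count is not support for a shared direction. Cxcl5, a further ligand of CXCR2, had 22, 4 and 10 counts in sham and 613, 1057 and 558 in TBI mice (log2 fold change 5.90, standard error 0.458, edgeR adjusted p = 4.14e-05). Cxcl3, a close copy of Cxcl2, had 0 counts in all sham libraries and 12, 16 and 70 in TBI libraries, at least 11.3-fold higher with 3 counts and 5.65-fold with 6. Without TBI replicate 3 the bounds for Cxcl3 were 4.41-fold and 2.21-fold. Cxcl2 and Cxcl3 were the only pair, of 120 pairs among 16 ligands, whose transcripts shared runs of 50 bases, so reads may be split between them. Pf4, the platelet factor, had 82, 103 and 71 counts in sham and 728, 194 and 992 in TBI mice (log2 fold change 2.91, standard error 0.544, edgeR adjusted p = 0.00453). Cxcl11, the third ligand of CXCR3, had 4, 0 and 0 counts in sham and 10, 18 and 22 in TBI libraries, too few to be tested, and Ppbp, Cxcl15 and Cxcl17 were not tested either.

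The receptors of these ligands were examined as a list. Of 9 receptors, 7 were tested, 5 were higher after TBI and none was lower, beside the background of 16.8% called higher. Cxcr2, Cxcr3 and Cxcr6 entered the test through their TBI libraries alone, and of the 4 receptors with at least 10 counts in every library 2 were called higher (Cxcr4 and Cx3cr1). Cxcr2, the receptor of Cxcl1, Cxcl2, Cxcl3 and Cxcl5, had 0 counts in every sham library and 46, 103 and 140 counts in TBI libraries, at least 32.4-fold higher with 3 counts and 16.2-fold with 6 (edgeR adjusted p = 0.00087). Cxcr3, the receptor of Cxcl9 and Cxcl10, had 2, 0 and 0 counts in sham and 36, 24 and 16 counts in TBI libraries (edgeR adjusted p = 0.00323). For both receptors all TBI libraries were above all sham libraries, with Cxcr3 low throughout.

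Cxcr4, which binds CXCL12, was at 2.35 ± 0.344 CPM in sham and rose to 14.3 ± 2.76 CPM (SD, n = 3 each), with a log2 fold change of 2.60 (standard error 0.195, edgeR adjusted p = 3.44e-05). Cxcr6, which binds CXCL16, had 3, 2 and 2 counts in sham and 16, 23 and 22 in TBI mice (log2 fold change 3.04, edgeR adjusted p = 0.00379). Cx3cr1 went opposite to its ligand: it rose from 44.4 ± 3.46 to 167 ± 6.67 CPM (SD, n = 3 each), 3.75-fold (log2 fold change 1.91, standard error 0.0812, edgeR adjusted p = 3.51e-06). All 8 microglial markers were also called higher, against 16.8% of all genes, with a median log2 fold change of 1.23. Their part in the Cx3cr1 result was not tested. The scavenging receptor Ackr3, which takes up CXCL12, had a log2 fold change of -0.17 (edgeR adjusted p = 0.411), and Ackr1, which binds many inflammatory chemokines, -0.08 (edgeR adjusted p = 0.71). Cxcr1 and Cxcr5 were not tested, and Cxcr5, the receptor for CXCL13, had 0 counts in sham and 2, 10 and 10 counts in TBI libraries.

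**Figure D2:**
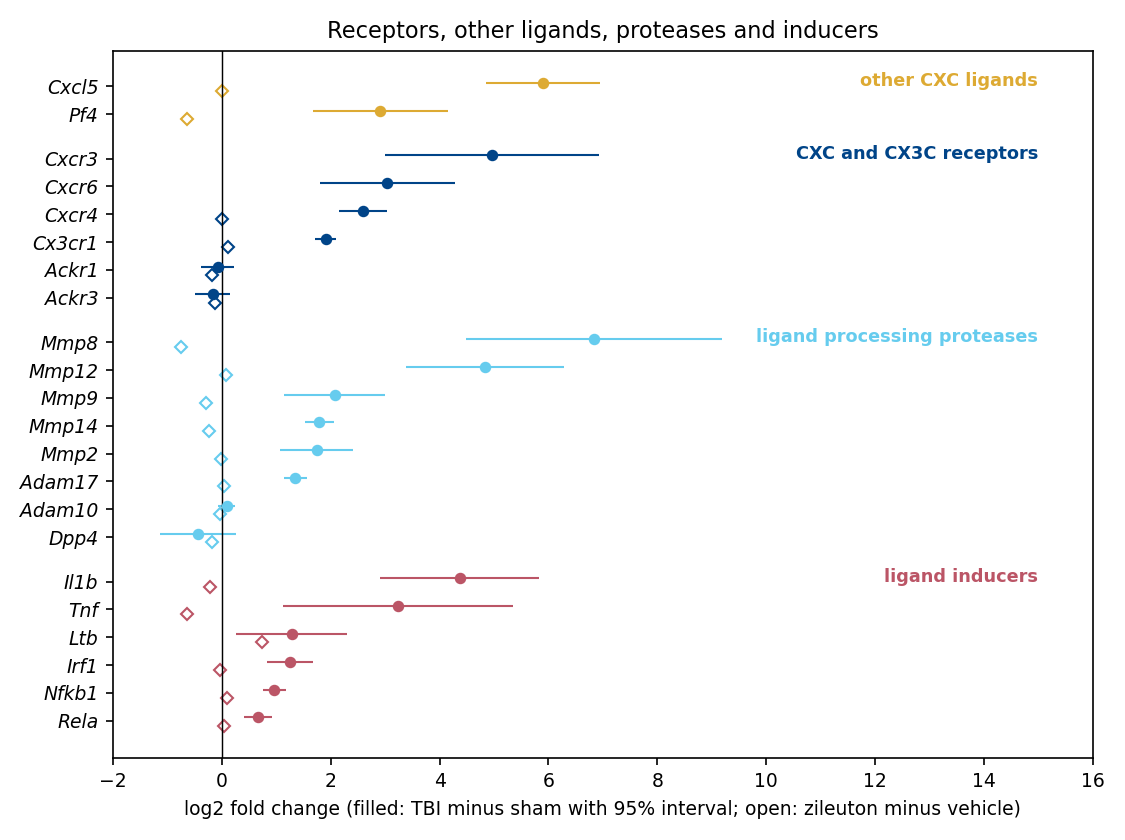
Log2 fold changes of other CXC ligands, receptors, ligand-processing proteases and inducers. Filled points with 95% intervals give TBI minus sham and open diamonds zileuton minus vehicle where tested, and genes with 0 counts in all sham libraries (Cxcl3, Cxcr2) are left out. Most filled points lie to the right of 0, whereas the open diamonds lie near or on either side of it.

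Of 8 proteases that cut or release these ligands, all were tested and 6 were higher after TBI, against 16.8% of all genes. Mmp8 and Mmp12, with 2 and 16 counts over the sham libraries, passed the filter chiefly through their TBI libraries. With at least 10 counts in every library there were 6, of which 4 were called higher. Adam17, a sheddase of CX3CL1 and CXCL16, rose 2.56-fold (log2 fold change 1.35, standard error 0.0945, edgeR adjusted p = 2.47e-05), whereas Adam10, the other sheddase, had a log2 fold change of 0.09 (edgeR adjusted p = 0.377). Log2 fold changes were 1.74 for Mmp2, 2.07 for Mmp9, 4.84 for Mmp12 and 1.79 for Mmp14, matrix metalloproteinases of which several trim chemokines. Mmp8, a neutrophil collagenase, had 0, 2 and 0 counts in sham and 54, 40 and 170 in TBI mice. Dpp4, which clips the ends of CXCL9, CXCL10 and CXCL12, had a log2 fold change of -0.44 (edgeR adjusted p = 0.332).

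Among 9 cytokines and transcription factors known to induce these ligands, 6 were tested and 5 were higher, against 16.8% of all genes. With at least 10 counts in every library there were 4, of which 3 were called higher. Il1b and Tnf, with 35 and 8 counts over the sham libraries, passed the filter chiefly through their TBI libraries. Log2 fold changes were 4.37 for Il1b (standard error 0.644, edgeR adjusted p = 0.00137) and 3.23 for Tnf (0.932, edgeR adjusted p = 0.0311). They were 1.25 for Irf1, 0.96 for Nfkb1 and 0.67 for Rela. Ltb, a lymphotoxin subunit tied to Cxcl13 expression in lymphoid tissue, had a log2 fold change of 1.28 (edgeR adjusted p = 0.0634). Ifng, the interferon that classically induces Cxcl9, had 0 counts in all 6 libraries, which allows up to 3 counts per library, or 6 where counts come in pairs. Ifnb1 and Il17a were not tested.

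Markers of leukocytes were summed in the same libraries. Those of monocytes and macrophages summed to 22 to 25.1 CPM in sham and 603 to 1330 CPM in TBI libraries. Lyz2 alone, at a mean of 828 CPM, held most of the TBI sums. Of the 8 markers 7 were called higher, against 16.8% of all genes. Only 5 had at least 10 counts in every library, of which 4 were called higher, and the others passed the filter chiefly through their TBI libraries. Neutrophil markers summed to 0.605 to 1.49 and 15.5 to 59.8 CPM, and 4 of the 8 were tested. S100a8 and S100a9, at TBI means of 13.8 and 18 CPM, held most of the TBI sums. Only 1 neutrophil marker, S100a8, had at least 10 counts in every library. The defining Ly6g was at 0, 0 and 0 counts in sham and 0, 2 and 6 in TBI mice. NK cell markers summed to 0.0432 to 0.189 and 1.89 to 5.78 CPM. Eomes and Gzma, at TBI means of 2.29 and 1.06 CPM, held most of the TBI sums, while Ncr1 was at 0.0952 CPM and Klrb1c at 0.141 CPM. Only 2 of the 6 NK cell markers were tested, and 0 had at least 10 counts in every library. T cell markers overlapped between the groups, at 8.99 to 22.6 and 5.02 to 31 CPM, as did the B and plasma cell markers given above. Cd4 (means of 12.5 and 12.3 CPM) held most of the T cell sums and Ighm most of the others. Of 4 T cell markers tested, 2 were lower in direction and 1, Cd3g, was called higher (log2 fold change 3.64, edgeR adjusted p = 0.0219, 4 sham counts). Of 4 B and plasma cell markers tested, 1 was lower in direction and 1, Cd79b, was called higher (2.83, edgeR adjusted p = 0.000572). Untested Cd8a had 0 sham and 39 TBI counts. TBI replicate 3 had the highest CPM of its group for Cxcl1, Cxcl2, Cxcl10, Cxcl12 and Cxcl16 and replicate 2 for Cxcl9 and Cxcl13, the latter being lowest in replicate 3. Replicate 3 was also the highest in S100a8 (1093 counts, against 294 and 496 in the other TBI mice) and S100a9 (1341, against 434 and 685) of the neutrophil list. The same held for the myeloid gene Lyz2 (53050, against 34497 and 26960). The part of leukocytes in the ligands' levels was not tested.

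The second comparison asked whether zileuton changed gene expression in injured brain. No ligand passed the test. Of 17363 genes tested, 0 were called (0%) with edgeR at an adjusted p under 0.05, while an unadjusted p under 0.05 was reached by 1186 genes, 6.83%, where 868 make up 5%. DESeq2 called 27 genes, none of them a ligand. Among the 7 ligands with enough counts to be tested, 0 had an unadjusted p under 0.05 in edgeR and 0 had groups without overlap, against 13.6% of all genes. A missed threshold does not show equal expression, so the intervals are given.

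**Figure D3:**
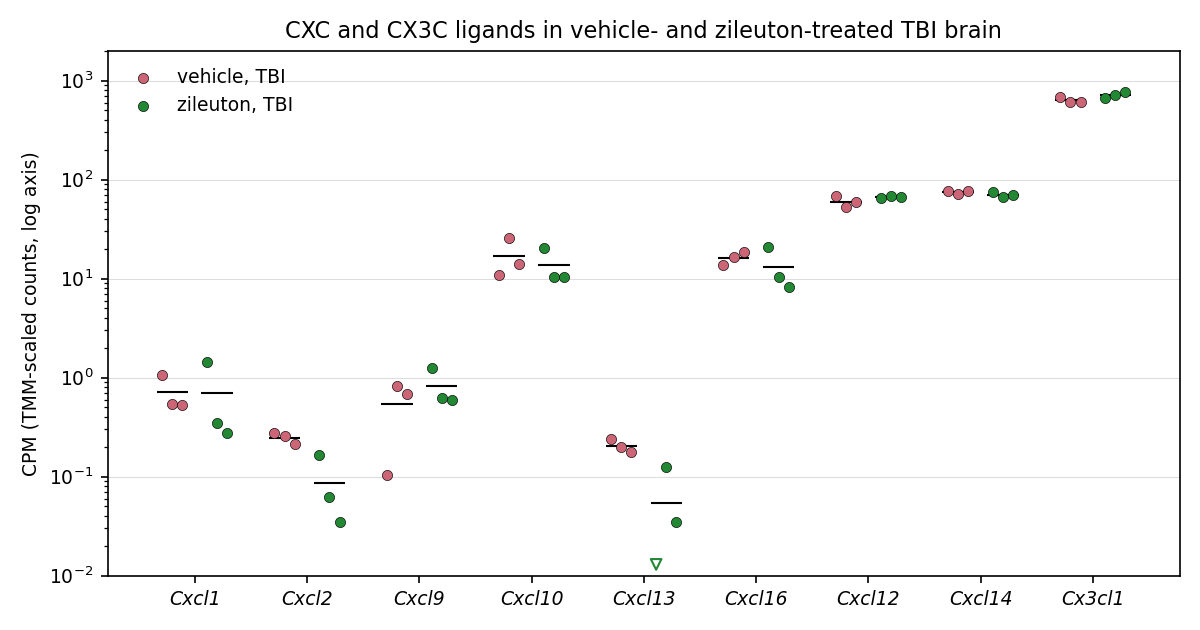
CPM of each ligand on a log axis in 3 vehicle libraries (red) and 3 zileuton libraries (green), all after TBI, with group means as bars and a count of 0 as an open triangle at the foot. Within each group of 3 points, replicates A, B and C run from left to right. Zileuton replicate A is the highest zileuton library for Cxcl1, Cxcl2, Cxcl9, Cxcl10 and Cxcl16.

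Cxcl10 had 318, 907 and 389 estimated counts in vehicle and 624, 331 and 300 in zileuton replicates A, B and C. The groups overlapped because vehicle replicate B and zileuton replicate A were both high. Levels were 16.9 ± 7.95 and 13.8 ± 5.82 CPM (SD, n = 3 each), and the log2 fold change was -0.30 with a 95% interval of -1.14 to 0.54 (edgeR adjusted p = 0.857). It was 0.16 without vehicle replicate B and -0.70 without zileuton replicate A.

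Cxcl16 had 396.06, 584.03 and 523.65 estimated counts in vehicle and 640.39, 329.57 and 239.25 in zileuton mice. Zileuton replicate A was the highest of all 6, and the other zileuton libraries were the lowest. The log2 fold change was -0.30 (95% interval -1.03 to 0.43, edgeR adjusted p = 0.832), and -0.80 without zileuton replicate A, still not past the threshold.

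Cxcl1 had 31, 19 and 15 estimated counts in vehicle and 44, 11 and 8 in zileuton mice, again with zileuton replicate A highest and the other zileuton libraries lowest. Its log2 fold change was -0.04 (95% interval -1.52 to 1.44, edgeR adjusted p = 0.99). Without zileuton replicate A it was -1.17, and without vehicle replicate A 0.36. Cxcl5 had 86, 117 and 91 estimated counts in vehicle and 208, 52 and 31 in zileuton mice, and Cxcr2 had 27.77, 31.15 and 18.53 in vehicle and 42.97, 6.97 and 7.11 in zileuton mice. For Cxcl1, Cxcl5 and Cxcr2, set side by side after their values were seen, zileuton replicate A lay above the vehicle range and replicates B and C below it. Cxcl2, a ligand of the same receptor, lay below the vehicle range in all 3 zileuton libraries, with counts of 5, 2 and 1. In TPM, however, replicate A lay just above the vehicle range for Cxcl2 as well. S100a9 had 98 estimated counts in zileuton replicate A and 23 and 18 in replicates B and C, against 55, 104 and 44 in vehicle mice. It is 1 of 8 neutrophil markers, of which 2 were tested here. Their sums overlapped, at 2.07 to 4.37 CPM in vehicle and 0.879 to 5.06 CPM in zileuton libraries.

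Cxcl9 had 3, 29 and 19 estimated counts in vehicle and 38, 20 and 17 in zileuton mice. The groups overlapped, with vehicle replicate A lowest. The log2 fold change was 0.60 (95% interval -0.84 to 2.04, edgeR adjusted p = 0.83), and it was 0.12 without vehicle replicate A, 1.08 without vehicle replicate B and 0.17 without zileuton replicate A. The deposited TPM of Cxcl9 was 0.07, 0.54 and 0.41 in vehicle and 2.4, 0.64 and 2.14 in zileuton mice. On that scale the groups did not overlap, since TPM and estimated counts were not in one ratio across libraries. With limma on log2(TPM + 0.1) the difference was 2.07 (limma adjusted p = 0.733), which did not pass the threshold either.

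The abundant ligands varied little. Cx3cl1 was at 631 ± 40.5 CPM in vehicle and 718 ± 52.4 CPM in zileuton mice (SD, n = 3 each), with zileuton replicate A inside the vehicle range and the other zileuton libraries above it. Its log2 fold change was 0.19 (95% interval -0.03 to 0.40, edgeR adjusted p = 0.713). Cxcl12 was at 59.8 ± 7.45 and 66.6 ± 1.20 CPM (SD, n = 3 each), with a 95% interval of the log2 fold change of -0.06 to 0.38, and Cxcl14 at 75.1 ± 3.46 and 70.3 ± 4.15 CPM, with an interval of -0.27 to 0.08. Both groups of libraries overlapped for Cxcl12 and for Cxcl14.

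Cxcl2 and Cxcl13 had too few counts to pass edgeR's expression filter. Cxcl2 had 8, 9 and 6 estimated counts in vehicle and 5, 2 and 1 in zileuton mice, a ratio of 0.353 (exact 95% counting interval 0.136 to 0.817). Cxcl13 had 7, 7 and 5 estimated counts in vehicle and 0, 4 and 1 in zileuton mice, a ratio of 0.267 (0.0779 to 0.739). For both genes the zileuton libraries lay below the vehicle libraries in counts. For Cxcl2 this did not hold in TPM, which was 0.55, 0.5 and 1.43 in vehicle and 1.49, 0.13 and 0.07 in zileuton mice. The counting intervals leave out the spread between animals. In edgeR without the filter, which takes in that spread, neither was called (log2 fold change -1.46 for Cxcl2 and -1.85 for Cxcl13, adjusted p = 0.787 for each).

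**Figure D4:**
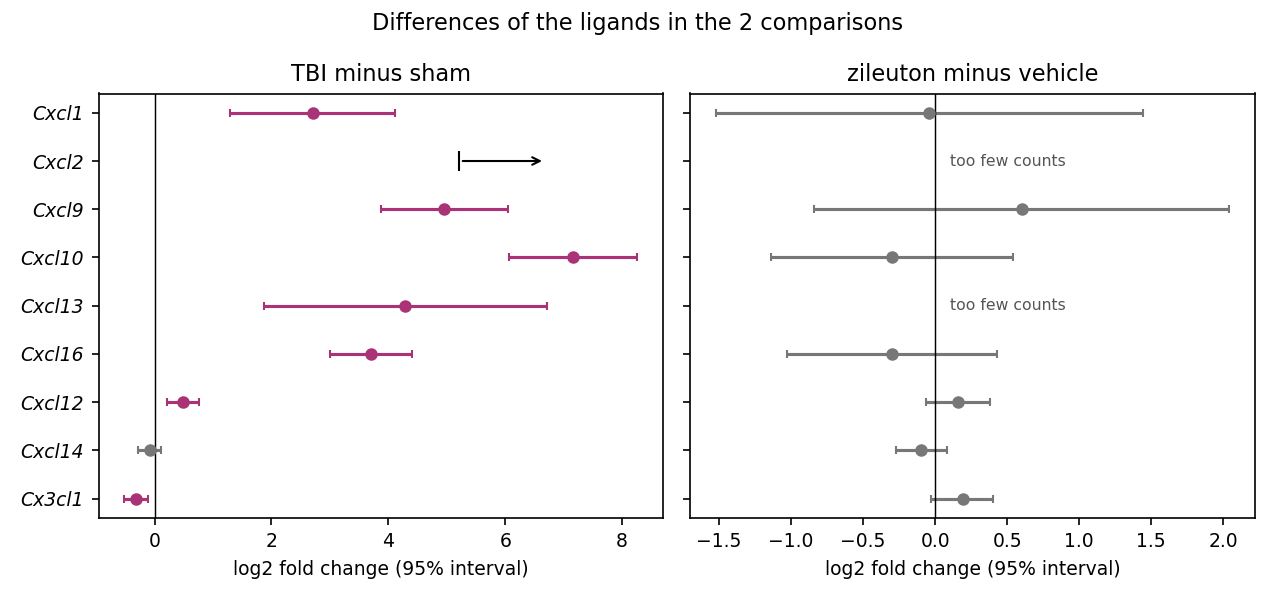
Log2 fold changes with 95% intervals for TBI minus sham (left) and zileuton minus vehicle (right), on separate axes, with calls at an adjusted p under 0.05 in purple and others in grey. Cxcl2 after TBI is drawn as an arrow from its bound of at least 36.8-fold, and all intervals in the zileuton panel include 0.

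Per length, the order of the ligands in vehicle mice was Cx3cl1 (mean TPM 362), Cxcl14 (93.1), Cxcl12 (37), Cxcl10 (33.5), Cxcl16 (14.6), Cxcl1 (1.66), Cxcl2 (0.827), Cxcl13 (0.383) and Cxcl9 (0.34). Cxcl12 and Cxcl10 overlapped between vehicle libraries, as did Cxcl1 and Cxcl2, Cxcl2 and Cxcl9, and Cxcl13 and Cxcl9. Ligands other than Cx3cl1 and Cxcl14 made up 13.8% to 18.6% of the summed TPM in vehicle and 11.2% to 18.2% in zileuton libraries. TPM of 2022 and FPKM of 2018 were made separately and are not compared.

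None of the 5 receptors that could be tested was called under zileuton, where 0 of all 17363 genes were called. The log2 fold change was -0.43 for Cxcr2 (95% interval -1.96 to 1.11), 0.00 for Cxcr4 (-0.93 to 0.93) and 0.11 for Cx3cr1 (-0.22 to 0.44). Likewise 0 of 8 proteases and 0 of 6 inducers were called, beside the same 0% of all genes. Among them were Adam17 at a log2 fold change of 0.03 and Tnf at -0.64 (edgeR adjusted p = 0.827).

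Genes whose pattern was most like that of a ligand were found from log2 CPM centred within each batch over the 12 libraries, among 16516 genes tested in both batches, by the smallest root mean square difference. For Cxcl10, whose own spread on this scale was 2.38, these were Ifi204 (difference 0.36), Ifi206 (0.37) and Zbp1 (0.38), genes known as interferon-inducible. For Cxcl16, with a spread of 1.36, they were Rab32 (0.17), Hmox1 (0.19) and Slc15a3 (0.19). Cxcl9 was closest to AU020206 (0.41), Itgax (0.49), which encodes CD11c, and Serpina3n (0.52), beside its own spread of 1.58. Cxcl1 was closest to Plscr2 (0.40), Cyp1b1 (0.40) and Ptx3 (0.41), beside 1.01. The patterns of Cxcl12, Cxcl14 and Cx3cl1 were too flat to set genes apart, with spreads of 0.22, 0.09 and 0.16 and nearest genes Slc25a35 (0.09), Ttc26 (0.06) and Srf (0.06). These distances mostly follow the step from sham to TBI, which the 2018 libraries share, and are given as a description.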

How the data were processed

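The authors deposited 2 tables per batch: whole-number counts and FPKM in 2018, and estimated counts with decimals and TPM in 2022. The submitters' processing notes name HISAT2, featureCounts, Subread, DESeq2 and GRCm39 without roles, and versions are not given in the sources used here. Positions are from GENCODE M21 on GRCm38, which the authors need not have used.

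Estimated counts were rounded, although the plan assumed counts. Each batch was tested alone in R 4.3.3 with edgeR 4.0.16 (TMM, filterByExpr, glmQLFit, glmQLFTest), tested on simulated data, with Benjamini-Hochberg adjustment over all genes tested. Standard errors are the log2 fold change over the root of F. Motifs were searched in RefSeq promoters with Python 3.11.15. The 9 ligands were named by gene, and the lists by role. Ligands and lists were chosen with earlier results of these data known. In the planned lists, 1 gene is not reported here. Overlapping and sex-linked genes were added after their values were seen. Alternatives were other scaling, filters, DESeq2 1.42.0, a robust fit, limma 3.58.1 on FPKM or TPM with pseudocounts of 1 and 0.1 (mean of at least 0.5), a length trend, a replicate block and leaving out each mouse. The p-values measure the spread between libraries, which the labels number as separate mice.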

Additional observations from a re-analysis of the deposited data

How the results depend on the processing

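In TBI against sham, the number of ligands called (8) was 3 with at least 10 counts in every library, where only 4 could be tested, 4 with limma on log2(FPKM + 1), 5 with limma on log2(FPKM + 0.1), 5 with limma on log2(FPKM + 1) without a filter, and between 4 and 8 when each mouse was left out. Receptors called (5) numbered 2 with at least 10 counts in every library and 2 with limma at either pseudocount and its filter. Fewer genes entered the fits with these filters. A pseudocount of 1 compresses low FPKM: without a filter the log2 differences were 0.28 for Cxcl1, 0.54 for Cxcl9, 0.55 for Cxcl13, 1.05 for Cxcl2, 2.07 for Cxcl16 and 2.79 for Cxcl10. Other scalings, DESeq2, no filter, a robust fit and a length trend gave 8 ligands. For zileuton, the count of all genes called (0) was 27 with DESeq2, 4 without a filter, 4 with limma on log2(TPM + 1) and 3 with log2(TPM + 0.1), and 0 ligands were called under each. The log2 fold change of Cxcl1 under zileuton turned to 0.05 with a length trend and ran from -1.17 to 0.36 when each mouse was left out, and that of Cxcl10 from -0.70 to 0.16. The cause was not tested. Unadjusted zileuton calls (1186) ran from 689 to 1909 when each mouse was left out.

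Same-numbered libraries did not vary together (correlations of deviations -0.023, -0.094 and -0.033 in 2018, and -0.28, 0.063 and -0.282 in 2022). Of the 3 numbers in 2022, 1 had its highest correlation with itself, and none in 2018 did. Deviations from means of 3 libraries cannot show whether same-numbered libraries were handled together, and no label ties them beyond the number. With a replicate block 6 ligands were called after TBI (Cxcl13, adjusted p = 0.0512, and Cx3cl1, 0.0621, were not), with the block and a length trend together 5, and under zileuton 0, with 729 and 523 genes at an unadjusted p under 0.05. Depth limits Cxcl1, Cxcl2, Cxcl9 and Cxcl13, which rest on few read pairs in sham or 2022 libraries.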
